A study of Mus musculus with 17 samples.

Results

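The 10 genes described here were guanylate-binding proteins (GBPs) and immunity-related GTPases (IRGs) of the mouse, followed across 3 groups of macrophages. They were selected by gene symbol and not by their values, and comprised 4 GBPs (Gbp2, Gbp3, Gbp5 and Gbp7) and 6 IRG genes (Irgm1, Irgm2, Igtp, Iigp1, Ifi47 and Gm4951). All 10 were found among the 21683 rows of the expression table, and all 10 were among the 10451 genes that reached 1 TPM (transcript abundance scaled for length and for the whole library) in 5 or more libraries, which were the genes tested. The macrophages were peritoneal macrophages (PMs) elicited with thioglycollate in C57BL/6 mice of 8 weeks, and the study used males. All mice carried loxP-flanked alleles of Ikbkb, which encodes IKKβ, the kinase that activates canonical NF-κB. IKKβF/F mice kept IKKβ. IKKβΔMye mice also carried a heterozygous Cre knock-in at the lysozyme locus (LysM-Cre), which deletes the floxed alleles in myeloid cells, so the Cre was absent from the controls. PMs attached for 4 h and were then given PBS (IKKβF/F PBS, 6 libraries) or 100 nM recombinant HIV protein Tat for 12 h (IKKβF/F Tat, 6 libraries, and IKKβΔMye Tat, 5 libraries). Tat is the transactivator of HIV, which infected cells release, and here it was made in bacteria. The paper reports endotoxin below the detection limit of its assay after a removal step. The control here was PBS. A placebo solution prepared without inducing Tat, which the paper used in other mice, was not among these groups. An effect of other components of the Tat preparation was therefore not tested. PMs of IKKβΔMye mice given PBS were not analysed here, so a difference between IKKβΔMye Tat and IKKβF/F Tat can include a difference that preceded Tat. The labels do not say that the libraries of a group came from separate mice, whereas the paper describes the columns of its heatmap as biological replicates of mouse. The p-values measure only the spread between these libraries.

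GBPs and IRGs are GTPases of the cell-autonomous immune defence and are classic targets of interferon-γ in macrophages. GBPs are large, dynamin-related GTPases that coat intracellular bacteria and the vacuoles of parasites, open these vacuoles and promote inflammasome activation. The IRGs comprise regulators (the IRGM type, to which Irgm1, Irgm2 and Igtp belong), which sit on the membranes of the cell's own organelles and restrain the others, and effectors such as Iigp1 and Ifi47, which load onto the vacuole of the pathogen. Interferon-γ drives these genes through GAS elements and through IRF1 and related factors, which bind interferon-stimulated response elements (ISREs). The comparisons asked how Tat and the loss of myeloid IKKβ altered the transcripts of this family.

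The promoters are shown first because they carry the sequence that members of the family share. RefSeq (GRCm38.p6) held promoters of 250 bases before to 50 bases after the start for 8 of the 10 members, and there was no entry for Iigp1 or Gm4951. An ISRE was searched on both strands as GAAA followed after 2 bases of any kind by another GAAA. It was found in 7 of these 8 members (not in Ifi47), whereas 3.99% of all 27025 genes with a promoter of this length held one in at least 1 promoter (3.44% of all 32851 promoters). Gbp3 had 2 promoters, of which 1 held it. In the windows of 30 bases below, capitals mark the ISRE matches on the strand of the gene, where a match on the opposite strand reads as a pair of TTTC.
Gbp2 (chr3:142620594-142620623, + strand): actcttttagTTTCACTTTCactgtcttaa
Gbp3 (chr3:142559992-142560021, + strand): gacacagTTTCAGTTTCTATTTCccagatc
Gbp5 (chr3:142496759-142496788, + strand): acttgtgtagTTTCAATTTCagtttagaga
Gbp7 (chr3:142530273-142530302, + strand): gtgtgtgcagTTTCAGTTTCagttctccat
Irgm1 (chr11:48871428-48871457, - strand): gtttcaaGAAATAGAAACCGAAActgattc
Irgm2 (chr11:58214903-58214932, + strand): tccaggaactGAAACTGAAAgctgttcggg
Igtp (chr11:58199512-58199541, + strand): tctaggaactGAAACTGAAAgctgttcggg
The 4 GBPs all held the match in the TTTC orientation and the 3 IRGM-type genes in the GAAA orientation. Gbp3 and Irgm1 each held 2 matches that share a core. The Irgm2 and Igtp windows were identical at 29 of 30 bases. The GAS element, TTCNNNGAA, which reads the same on both strands, was found in Gbp5, Gbp7, Irgm2 and Igtp, against 9.55% of all genes (8.3% of promoters). The NF-κB consensus was found in Gbp2 and Gbp5, against 9.55% of all genes (8.46% of promoters). A match is a description of these letters and no evidence that a factor was bound in these cells.

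**Figure D1:**
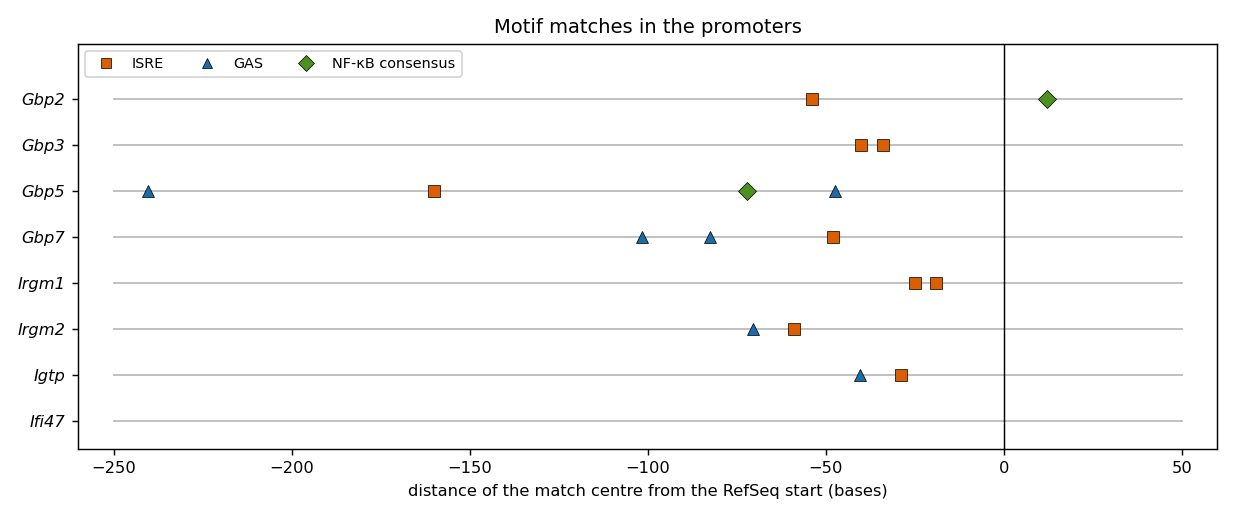
Each line is the promoter of a member, drawn from 250 bases before to 50 bases after its RefSeq start, with the distance from the start in bases on the horizontal axis and symbols at the centres of motif matches. ISRE matches (squares) lie at -59 to -19 in 6 of the 7 genes that hold one and at -160 in Gbp5. Triangles mark GAS and diamonds the NF-κB consensus, and Ifi47 has no match.

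The members lie on 3 chromosomes, given here in GENCODE M21 coordinates of GRCm38. The 4 GBPs are on chromosome 3, in the order Gbp5 (142493978 to 142522344), Gbp7 (142530342 to 142550149), Gbp3 (142560026 to 142573209) and Gbp2 (142620602 to 142638008). On chromosome 11 lie Irgm1 (48861968 to 48871683) and Ifi47 (49076587 to 49096974) and, in a separate locus, Igtp (58199556 to 58207591) and Irgm2 (58199618 to 58222782). Gm4951 (60212080 to 60247820) and Iigp1 (60376027 to 60392634) share a cluster on chromosome 18. Related genes can exchange reads. Of all 31-base sequences in a member's transcripts, the share that also occurs in another gene was between 2.20% (Irgm1) and 15.9% (Igtp). Igtp shared its 15.9% with Irgm2, which shared 9.16% in return, and the annotated Irgm2 gene overlaps Igtp on the same strand. Gm4951 shared 10.4% of its sequences with Iigp1, and Iigp1 shared 4.63% with Gm4951. Gbp7 shared 10.8% with the overlapping Gm43802 and 3.26% with Gbp3, and Gbp3 shared 5.52% with Gbp7. The remaining shares were 4.85% for Gbp2 (mostly with Gbp2b), 3.05% for Gbp5 and 3.32% for Ifi47 (with the overlapping Olfr56). Values of Igtp against Irgm2, of Gm4951 against Iigp1 and of Gbp7 against its neighbours therefore depend in part on how Salmon divided shared reads. For comparison, 74.2% of Gbp6, 84.4% of Tgtp1, 90.5% of Tgtp2 and 99.7% of Gvin1 sequences were shared, and these relatives are uncertain as single genes.

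The listed TPM of a library summed to between 889318 and 903576. Depth and counting error are unknown, as TPM do not keep the number of reads. All 8 macrophage markers were expressed in every group, including Adgre1 at a mean of 499 TPM in IKKβF/F PBS, 441 TPM in IKKβF/F Tat and 512 TPM in IKKβΔMye Tat. Other markers differed more, and in both directions. In the same order of groups, Csf1r was at means of 381, 64.0 and 104 TPM and Cd68 at 2596, 1744 and 1886 TPM. Cd14 was at 203, 842 and 1009 TPM. Ikbkb was 26.8 ± 1.99 TPM in IKKβF/F PBS, 23.2 ± 1.44 TPM in IKKβF/F Tat and 16.4 ± 2.59 TPM in IKKβΔMye Tat (mean ± SD). As the cells were measured in bulk, fewer cells of a type and less RNA per cell cannot be told apart.

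In IKKβF/F PBS the family was already expressed, with a summed level of 487 ± 18.8 TPM over the 10 members (SD, n = 6). Because TPM are set per transcript length, levels can be ranked between genes. Gbp2 was highest at 120.3 ± 7.37 TPM, followed by Irgm1 at 109.8 ± 3.56 TPM and Ifi47 at 101 ± 2.85 TPM, and the ranges of Irgm1 and Ifi47 overlapped. Igtp (40.9 ± 1.10 TPM) and Gbp3 (37.8 ± 2.37 TPM) also overlapped, as did Gbp7 (21.8 ± 2.90 TPM) and Gbp5 (17.8 ± 1.70 TPM), with Irgm2 (31.4 ± 2.21 TPM) between these pairs. Iigp1 (3.86 ± 0.414 TPM) and Gm4951 (2.001 ± 0.224 TPM) stood lowest and apart.

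Tat raised all 10 members. Every IKKβF/F Tat library was above every IKKβF/F PBS library for each of them, and all 10 passed both an adjusted p under 0.01 and a fold over 3, the thresholds used by the study (limma on log2(TPM + 0.1), Benjamini-Hochberg over all tested genes). Of all tested genes, 5.21% were called higher by this rule and 15.3% were higher with no overlap between the groups, and the median gene had a log2 difference of -0.65. The summed level of the 10 members reached 4590.1 ± 101 TPM in IKKβF/F Tat. The GBPs made up 40.6% ± 1.00 of the sum in IKKβF/F PBS and 64.8% ± 0.285 in IKKβF/F Tat, and these shares did not overlap. Median-ratio scaling, a rescaling of the libraries that brings the median gene to no change, left all 10 called, against 8.51% of all tested genes.

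The 4 GBPs rose between 7.07-fold and 29.4-fold. Gbp5, which promotes assembly of the NLRP3 inflammasome, was 15.3, 18.02 and 19.6 TPM in the lowest, median and highest IKKβF/F PBS library and 493, 529.9 and 549 TPM in IKKβF/F Tat. Its means differed 29.4-fold, a log2 difference of 4.87 (SE 0.052, adjusted p = 8.00e-24), the largest among the 10. Gbp3 went from 35.5, 37.1 and 42.0 TPM to 699.7, 717 and 771 TPM in the lowest, median and highest library of each group. It rose 19.2-fold (log2 difference 4.26, SE 0.037, adjusted p = 4.08e-25) and moved from the fifth to the second rank. Gbp2, a GBP with a lipid anchor that coats parasite vacuoles, was 114, 119 and 133 TPM with PBS and 1522, 1578 and 1605 TPM with Tat. It rose 13.1-fold (log2 difference 3.71, SE 0.033, adjusted p = 4.28e-25) and was the most abundant member in every group. Gbp7 was 18.1, 21.98 and 25.1 TPM with PBS and 137, 152 and 168 TPM with Tat. Its rise of 7.07-fold was the smallest of the 4 GBPs (log2 difference 2.82, SE 0.081, adjusted p = 4.63e-17).

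Among the regulatory IRGs, the rise was smaller. Irgm1, the regulator tied to autophagy and to survival of macrophages and T cells, was 104, 110.3 and 113 TPM in the lowest, median and highest IKKβF/F PBS library and 475, 499.9 and 522 TPM in IKKβF/F Tat. It rose 4.55-fold (log2 difference 2.19, SE 0.030, adjusted p = 3.17e-22). Irgm2 went from 28.1, 31.5 and 34.4 TPM to 114, 122 and 126 TPM. With 3.86-fold (log2 difference 1.95, SE 0.050, adjusted p = 6.93e-18) it had the smallest difference of the 10. Igtp, also known as Irgm3, was 39.8, 40.6 and 42.4 TPM with PBS and 249.8, 255 and 261 TPM with Tat. It rose 6.25-fold (log2 difference 2.64, SE 0.026, adjusted p = 2.19e-24). None of the 3 genes overlapped between the groups, but Igtp and Irgm2 share sequence and are not independent.

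The other 3 IRG genes rose between 6.22-fold and 25.2-fold. Iigp1, also called Irga6, an effector that loads onto the vacuole of Toxoplasma, was 3.29, 3.74 and 4.45 TPM in the lowest, median and highest IKKβF/F PBS library and 86.3, 97.5 and 105 TPM in IKKβF/F Tat. It rose 25.2-fold (log2 difference 4.62, SE 0.062, adjusted p = 2.74e-22) and stood behind Gbp5 alone. Gm4951, a gene model of the same cluster, went from 1.76, 1.94 and 2.41 TPM to 11.7, 12.9 and 14.9 TPM. It rose 6.51-fold (log2 difference 2.65, SE 0.074, adjusted p = 3.08e-17) and kept the lowest rank. Ifi47, also called Irgd, was 97.5, 101 and 104 TPM with PBS and 609, 629.9 and 651 TPM with Tat. It rose 6.22-fold (log2 difference 2.64, SE 0.027, adjusted p = 3.27e-24). The exact two-sided permutation test gave p = 0.00216 for each of the 10 members, the smallest that 6 against 6 libraries allow.

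**Figure D2:**
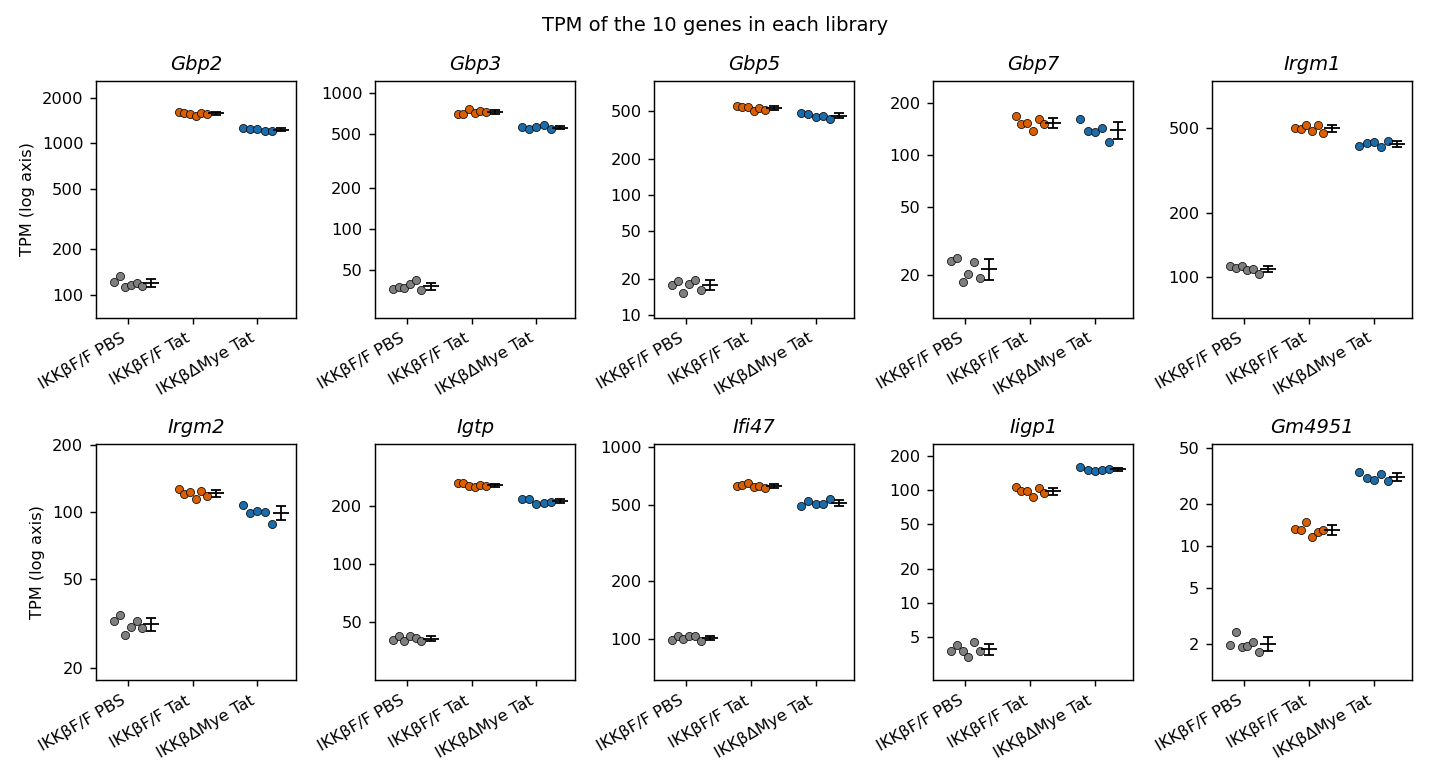
Each panel shows the TPM of a member on a log axis, with 1 point per library (6 IKKβF/F PBS, 6 IKKβF/F Tat, 5 IKKβΔMye Tat) and a black mark with bars for the mean and SD. All IKKβF/F Tat points lie above all IKKβF/F PBS points in every panel. IKKβΔMye Tat points lie below the IKKβF/F Tat points for Gbp2, Gbp3, Gbp5, Irgm1, Irgm2, Igtp and Ifi47, overlap them for Gbp7, and lie above them for Iigp1 and Gm4951.

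Between IKKβΔMye Tat and IKKβF/F Tat the members differed in both directions, and by far less than between IKKβF/F Tat and IKKβF/F PBS. In IKKβΔMye Tat, 7 of the 10 members were lower than in IKKβF/F Tat at an adjusted p under 0.01, 2 (Iigp1 and Gm4951) were higher and 1 (Gbp7) did not pass. Of all tested genes, 8.87% were lower and 38.8% were higher by this rule, and the median gene was 0.22 higher on the log2 scale. The same 7 and 2 members did not overlap between the groups, against 8.01% of tested genes lower and 28.6% higher without overlap. None of the 10 was past a fold of 3 (limma), although 9 of them had an unadjusted p under 0.05, and 0.316% of tested genes were lower and 0.44% higher at that fold. The summed level of the members was 4590.1 ± 101 TPM in IKKβF/F Tat and 3811 ± 52.8 TPM in IKKβΔMye Tat (SD, n = 6 and n = 5), with no overlap.

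All 4 GBP means were lower in IKKβΔMye Tat than in IKKβF/F Tat, 3 of them past the threshold. Gbp2 was 1255, 1242, 1241, 1210.1 and 1199.95 TPM in the IKKβΔMye Tat libraries, all below the lowest IKKβF/F Tat library. The mean was 78.3% of that of IKKβF/F Tat (log2 difference -0.35, SE 0.034, adjusted p = 5.84e-08). Gbp3 was 560.1, 546, 563, 583 and 545 TPM, again below every IKKβF/F Tat library. Its mean was 77.1% of the IKKβF/F Tat mean, the lowest percentage among the 10 (log2 difference -0.38, SE 0.039, adjusted p = 1.50e-07). Gbp5 was 478, 470.3, 444, 450.9 and 426 TPM and also did not overlap IKKβF/F Tat. Its mean was 86.8% of the IKKβF/F Tat mean (log2 difference -0.20, SE 0.055, adjusted p = 0.00362), and without the IKKβΔMye Tat library of 426 TPM the log2 difference was -0.18 with an adjusted p of 0.0113, past the threshold no longer. Gbp7 was 162, 139, 136, 143 and 119 TPM, within and below the IKKβF/F Tat range of 137 to 168 TPM. The 95% confidence interval of its log2 difference of -0.14 ran from -0.32 to 0.04 (adjusted p = 0.163, exact permutation test p = 0.113).

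The 3 IRGM-type genes were also lower in IKKβΔMye Tat, with log2 differences between -0.29 and -0.24. Irgm1 was 411, 428, 433, 408 and 435 TPM, below all IKKβF/F Tat libraries, and its mean was 84.7% of theirs (log2 difference -0.24, SE 0.031, adjusted p = 2.78e-06). Irgm2 was 107, 98.9, 101, 100.1 and 88.1 TPM, with a mean of 81.8% (log2 difference -0.29, SE 0.052, adjusted p = 1.06e-04). Igtp was 216, 216, 205, 207 and 208 TPM, with a mean of 82.3% (log2 difference -0.28, SE 0.027, adjusted p = 6.25e-08). Neither overlapped IKKβF/F Tat. Ifi47 was 496, 522, 504, 504 and 538 TPM, again below all IKKβF/F Tat libraries, with a mean of 81.5% (log2 difference -0.30, SE 0.028, adjusted p = 4.27e-08).

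Iigp1 and Gm4951, both on chromosome 18, differed in the other direction. Iigp1 was 159.99, 150.1, 147, 151 and 152 TPM in IKKβΔMye Tat, and every one of these values exceeded the highest IKKβF/F Tat library at 105 TPM. Its mean was 156% of the IKKβF/F Tat mean (log2 difference 0.65, SE 0.065, adjusted p = 1.09e-07). Gm4951 was 33.6, 30.8, 29.5, 32.5 and 29.2 TPM, all above the highest IKKβF/F Tat library at 14.9 TPM. Its mean was 239% of the IKKβF/F Tat mean (log2 difference 1.25, SE 0.078, adjusted p = 1.32e-10). Iigp1 made up 0.792% ± 0.0700 of the summed level of the 10 members in IKKβF/F PBS, 2.12% ± 0.111 in IKKβF/F Tat and 3.99% ± 0.106 in IKKβΔMye Tat. In the order of levels it had rank 9 in IKKβF/F Tat and rank 7 in IKKβΔMye Tat, where its range overlapped that of Gbp7. Gm4951 made up 0.284% ± 0.0193 of the sum in IKKβF/F Tat and 0.816% ± 0.0425 in IKKβΔMye Tat. Since the 2 genes share sequence, their values are not independent.

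The size of the lower group depended on how the libraries were scaled, and its direction did not. With median-ratio scaling, 8 of the 10 members were lower and 2 higher in IKKβΔMye Tat at an adjusted p under 0.01, against 19.4% and 15.9% of all tested genes. Gbp7 then passed, with a log2 difference of -0.36 (adjusted p = 2.74e-04). The scaled log2 differences were -0.57 for Gbp2, -0.60 for Gbp3, -0.43 for Gbp5, -0.46 for Irgm1, -0.51 for Irgm2, -0.50 for Igtp and -0.52 for Ifi47. Iigp1 (0.43, adjusted p = 2.10e-06) and Gm4951 (1.03, adjusted p = 2.20e-10) remained higher. With this scaling the median of all tested genes was 0.01.

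**Figure D3:**
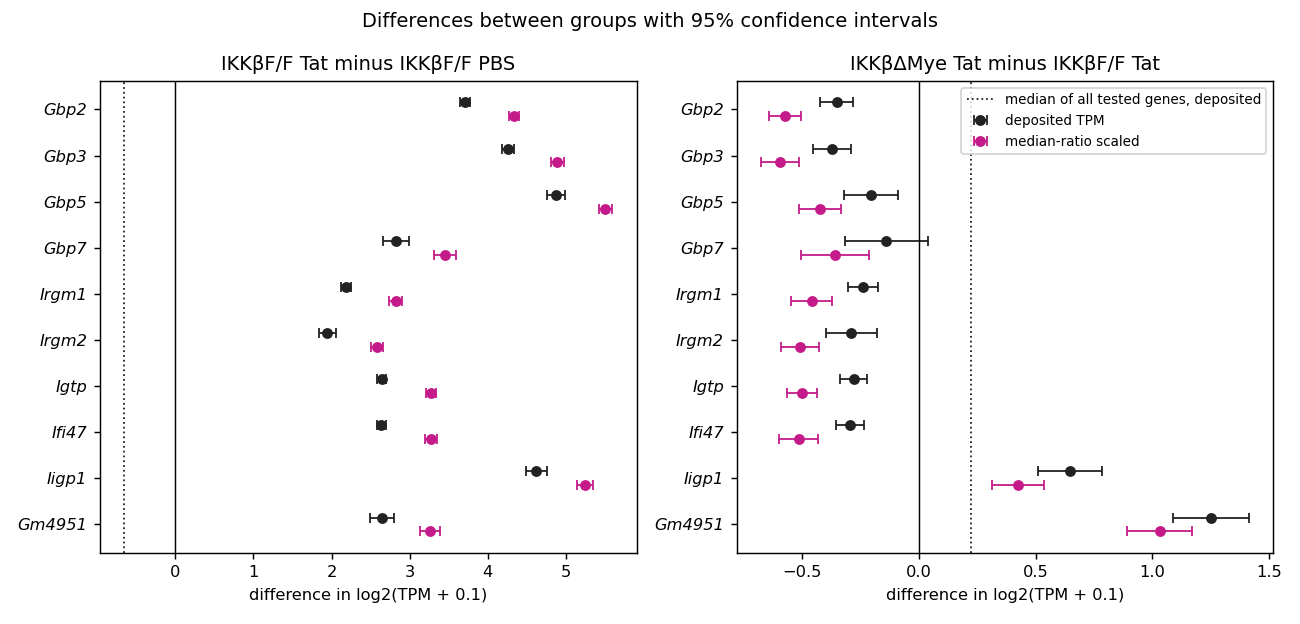
Points give the difference in log2(TPM + 0.1) with its 95% confidence interval for Tat against PBS in IKKβF/F PMs (left) and for IKKβΔMye Tat against IKKβF/F Tat (right), from deposited TPM (black) and after median-ratio scaling (pink), and the dotted line marks the median of all tested genes. The left panel runs from 1.95 (Irgm2) to 4.87 (Gbp5) for deposited TPM. In the right panel Iigp1 and Gm4951 lie to the right of 0 in both versions, and the interval of Gbp7 crosses 0 for deposited TPM alone.

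Against IKKβF/F PBS, the IKKβΔMye Tat libraries also held all 10 members higher. All 10 were called, against 4.38% of tested genes, and none overlapped, against 14.8% of tested genes higher without overlap. The log2 differences ran from 1.66 for Irgm2 to 5.27 for Iigp1, with 4.67 for Gbp5, 3.88 for Gbp3, 3.35 for Gbp2 and 3.90 for Gm4951. Irgm2, at 3.16-fold, stood just inside the fold threshold. This comparison shares its IKKβF/F PBS libraries with the Tat comparison and its IKKβΔMye Tat libraries with the genotype comparison, so the 3 are not independent.

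Most relatives of the members also rose with Tat. Of 25 other family genes sought, 18 were listed and 16 tested, and with Tat 14 of the 16 rose and 2 fell, against 17% of tested genes higher and 67.6% lower. With the fold over 3 as well, 10 of the 16 were called higher, against 5.21% of tested genes. Gbp10, Gm12185, F830016B08Rik and Gm4841 were below 1 TPM in every IKKβF/F PBS library, and Gbp4 reached 1 TPM in fewer than 5 of them. These genes entered the test only through the Tat groups, where they were high. Their rise was therefore largely set by the filter, and the counts are only a description. Gbp4 had the largest difference, from 1.11 ± 0.685 to 40.6 ± 3.79 TPM (log2 difference 5.33, adjusted p = 7.04e-12). Tgtp2, an effector IRG, rose from 14.0 ± 0.760 to 182 ± 6.38 TPM (3.70, adjusted p = 3.93e-24), although its reads can hardly be told from those of Tgtp1. Gbp8 fell from 6.21 ± 0.845 to 1.57 ± 0.36 TPM (-1.94, adjusted p = 1.30e-10). Irgq, a relative that interferon-γ is not known to induce, fell from 4.501 ± 0.409 to 3.36 ± 0.272 TPM (-0.41, adjusted p = 5.83e-04), which is above the median of all tested genes at -0.65, and the sign of its difference turned with median-ratio scaling (0.21).

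In IKKβΔMye Tat against IKKβF/F Tat, 6 of the 16 relatives were lower, 2 were higher and 8 did not pass, against 8.87% of tested genes lower and 38.8% higher. After median-ratio scaling the counts were 8 lower and 2 higher, against 19.4% and 15.9%. The 2 that were higher were Gbp8 at 4.37 ± 0.533 TPM (log2 difference 1.44, adjusted p = 1.48e-07) and F830016B08Rik at 3.00 ± 0.487 against 1.18 ± 0.370 TPM (1.32, adjusted p = 0.00103). F830016B08Rik lies between Gm4951 and Iigp1 on chromosome 18. It reached 1 TPM in 5 libraries only with those of IKKβΔMye Tat, where it was high, so its call is only a description. Gm4841, also of that cluster, was 2.73 ± 0.435 TPM in IKKβF/F Tat and 3.62 ± 0.252 TPM in IKKβΔMye Tat (0.40, adjusted p = 0.0304). Of the 10 tested family genes on chromosome 11, which lie in 2 loci, 4 members and 4 relatives were lower and none was higher, against the same 8.87% and 38.8%. Gm5431 was the lowest (77.4 ± 3.32 against 42.2 ± 2.19 TPM, -0.87, adjusted p = 1.82e-09). These lower genes are not all independent. The share of sequences that also occur in another gene was 90.5% for Tgtp2, 88.3% for 9930111J21Rik1, 69.5% for 9930111J21Rik2 and 47.2% for Gm5431. 9930111J21Rik1 shared 85.6% with 9930111J21Rik2, and Gm5431 shared 36.7% with 9930111J21Rik1. Igtp and Irgm2 share sequence as well. The comparison of this count with all tested genes is therefore only a description. Gbp6 (-0.05, adjusted p = 0.411) and Gbp4 (-0.03, adjusted p = 0.940) on chromosome 5 did not pass with deposited TPM, whereas Gbp9 was lower (-0.51, adjusted p = 6.97e-07). After median-ratio scaling Gbp6 was lower too (-0.27, adjusted p = 5.27e-05), and Gbp4 did not pass (-0.25, adjusted p = 0.553). Gbp6 shared 74.2% of its sequences with other genes, and Gbp9 18.3%. Outside the family, the nearby Cd74 on chromosome 18, the invariant chain of MHC class II, was also higher in IKKβΔMye Tat, at 2716 against 1186 TPM (1.19, adjusted p = 2.05e-15). The other tested genes near that cluster were not all higher. Dctn4 (0.31, adjusted p = 1.39e-05) and Ndst1 (0.50, adjusted p = 4.72e-04) passed with deposited TPM but not after scaling (0.09, adjusted p = 0.0733, and 0.28, adjusted p = 0.0137). Tcof1 was lower (-0.26, adjusted p = 0.00558), and Rps14 (-0.02, adjusted p = 0.696), Rbm22 (0.13, adjusted p = 0.0235) and Smim3 (0.02, adjusted p = 0.794) did not pass, although Rps14 was lower after scaling (-0.24, adjusted p = 0.00351).

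**Figure D4:**
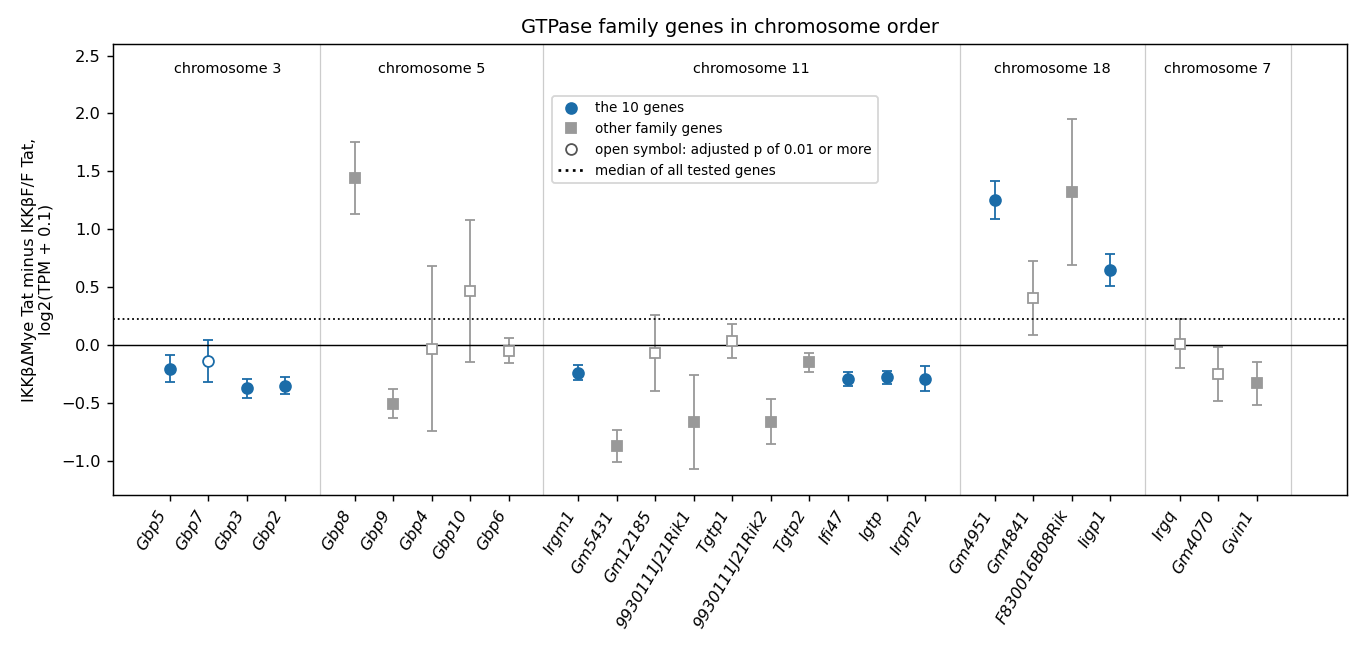
The difference between IKKβΔMye Tat and IKKβF/F Tat in log2(TPM + 0.1), with its 95% confidence interval, is plotted for the tested family genes in their order along each chromosome, with circles for the 10 members, squares for relatives, open symbols where the adjusted p was 0.01 or more, and a dotted line at 0.22, the median of all tested genes. All 4 genes of the chromosome 18 cluster lie above 0, and 3 of the 4 chromosome 3 genes and 8 of the 10 chromosome 11 genes lie below 0 with filled symbols.

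The genes that make or carry the interferon signal were examined from lists. At the adjusted p alone, 17% of all tested genes were higher and 67.6% lower with Tat (37.3% and 38% after median-ratio scaling), and 38.8% were higher and 8.87% lower in IKKβΔMye Tat against IKKβF/F Tat (15.9% and 19.4% after scaling). Of 13 genes for interferons and for cytokines that act on interferon-γ production, 6 were tested and all 6 rose with Tat. Ifng was among them only through the Tat groups, as it reached 1 TPM in fewer than 5 IKKβF/F PBS libraries. In IKKβΔMye Tat 1 of the 6 was higher and 3 were lower than in IKKβF/F Tat, or 1 and 4 with median-ratio scaling. Ifng itself, the gene of interferon-γ, rose from 0.862 ± 0.471 TPM to 56.1 ± 3.90 TPM (log2 difference 6.06, adjusted p = 8.04e-14). It was 86.5 ± 6.81 TPM in IKKβΔMye Tat, where every library exceeded every IKKβF/F Tat library while the adjusted p of the fitted log2 difference of 0.62 was 0.0733. Il27 was 649.6 ± 32.0 TPM in IKKβF/F Tat and 228 ± 12.6 TPM in IKKβΔMye Tat (-1.51, adjusted p = 4.08e-12). Il12a (-0.68, adjusted p = 3.00e-05) and Il18 (-0.49, adjusted p = 9.02e-06) were also lower in IKKβΔMye Tat. Il12b was higher, at 391 ± 17.6 TPM in IKKβF/F Tat and 638 ± 55.9 TPM in IKKβΔMye Tat (0.70, adjusted p = 8.25e-09). Ifnb1, the gene of interferon-β, was at a mean of 0.470 TPM in IKKβF/F Tat and 0.103 TPM in IKKβΔMye Tat and was not tested. The 4 listed interferon-α genes stayed below 1 TPM in every library.

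Receptor genes and transcription factors moved in both directions. Their counts in IKKβΔMye Tat stand against 38.8% of tested genes higher and 8.87% lower, or 15.9% and 19.4% after scaling. Ifngr1, the ligand-binding chain of the interferon-γ receptor, fell from 69.2 ± 3.05 to 18.2 ± 0.454 TPM with Tat (-1.92, adjusted p = 8.75e-20) and was 30.8 ± 1.05 TPM in IKKβΔMye Tat (0.76 against IKKβF/F Tat, adjusted p = 9.15e-12). Of 7 receptor and kinase genes, 3 rose and 1 fell with Tat (6 and 1 after median-ratio scaling), against 17% and 67.6% of tested genes (37.3% and 38% scaled). In IKKβΔMye Tat 4 of the 7 were higher and none lower, or 2 and 2 after scaling. Of 11 transcription factors, 9 rose with Tat and 1 fell (10 and 1 after scaling), and in IKKβΔMye Tat 3 were higher, 3 lower and 5 did not pass (2 higher and 8 lower with median-ratio scaling). Irf1, which drives GBP genes through ISREs, rose from 124 ± 8.66 to 595 ± 35.0 TPM with Tat and was 759.9 ± 17.1 TPM in IKKβΔMye Tat (0.35, adjusted p = 2.82e-06, and 0.13 with an adjusted p of 0.0317 after scaling). Irf8 (0.77, adjusted p = 2.55e-10) and Ciita (2.34, adjusted p = 3.24e-10), the switch of MHC class II genes, were also higher in IKKβΔMye Tat. Irf7 (-0.63, adjusted p = 8.22e-12), Stat2 (-0.56, adjusted p = 5.68e-07) and Stat3 (-0.59, adjusted p = 9.01e-08) were lower. Among 7 inhibitors of the pathway, 3 were higher and 1 was lower in IKKβΔMye Tat, or 2 and 3 after scaling. The lower one was Usp18, which blocks the type I interferon receptor, at 685 ± 18.5 TPM in IKKβF/F Tat and 285 ± 10.2 TPM in IKKβΔMye Tat (-1.26, adjusted p = 1.43e-16). Socs1 was 66.7 ± 1.99 TPM in IKKβF/F Tat and 88.9 ± 6.35 TPM in IKKβΔMye Tat (0.41, adjusted p = 1.66e-05). After scaling its difference was 0.19 and did not pass (adjusted p = 0.0326).

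**Figure D5:**
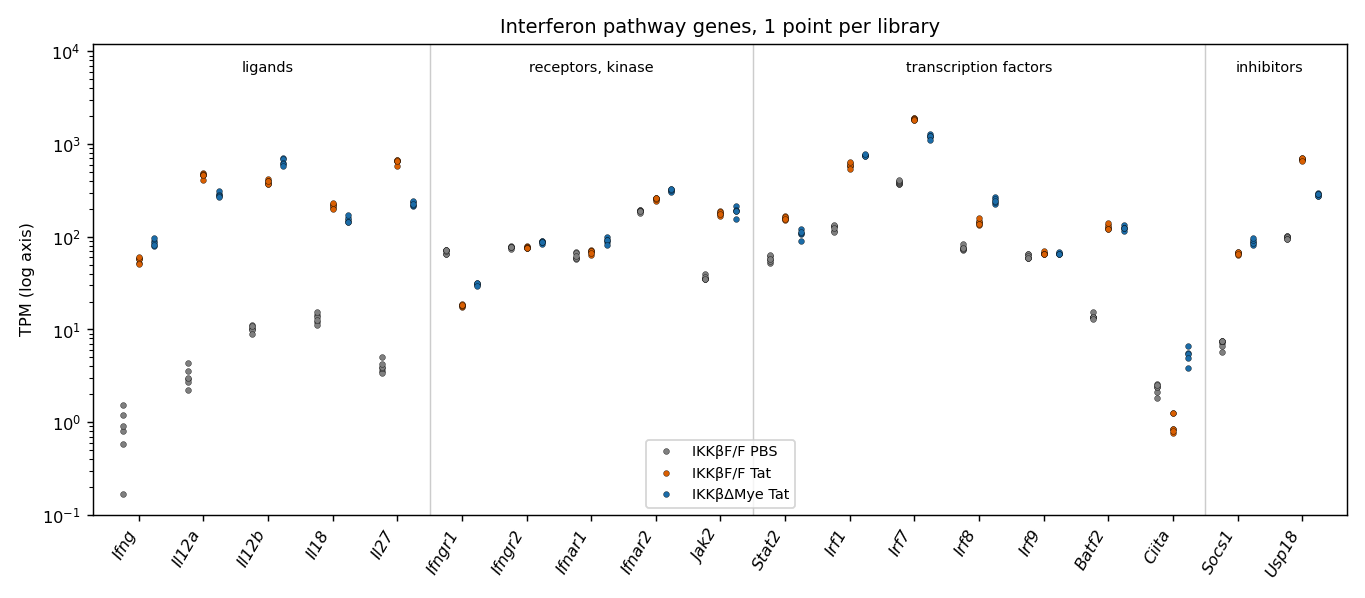
TPM on a log axis of 19 genes of the interferon pathway, grouped by role, with 1 point per library coloured by group. Ifng, Il12b, Irf1, Irf8, Ciita and Socs1 lie higher in IKKβΔMye Tat (blue) than in IKKβF/F Tat (orange), Il12a, Il18, Il27, Stat2, Irf7 and Usp18 lie lower, and Irf9 and Batf2 overlap.

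Genes for proteins that act with GBPs and IRGs were examined from further lists. Of the 10 genes of the ATG8 conjugation system, which directs these GTPases to vacuoles, 9 fell and 1 (Atg16l1) rose with Tat, against 67.6% and 17% of tested genes, and 6 were higher and none lower in IKKβΔMye Tat, against 38.8% and 8.87%. Median-ratio scaling gave 4 higher and 4 lower with Tat (37.3% and 38% of tested genes) and 1 higher and 1 lower in IKKβΔMye Tat (15.9% and 19.4%). Atg5 fell from 46.6 ± 2.23 to 13.6 ± 1.44 TPM with Tat and was 24.04 ± 1.67 TPM in IKKβΔMye Tat (0.82, adjusted p = 8.61e-09). Of 6 genes for the lipid modification of CaaX proteins, to which Gbp2 and Gbp5 belong, 5 fell with Tat and none rose (3 and none with scaling), against 67.6% and 17% of tested genes (38% and 37.3% with scaling). Of 8 inflammasome genes, 7 rose with Tat and 1 (Pycard) fell, against 17% and 67.6% of tested genes. In IKKβΔMye Tat 4 of the 8 were lower and 1 higher (7 and 1 with scaling), against 8.87% and 38.8% of tested genes (19.4% and 15.9% with scaling). The higher one was Pycard (0.56, adjusted p = 4.73e-06), and the lower ones included Casp4, the murine caspase-11 that GBPs help to activate, at 327 ± 12.3 TPM in IKKβF/F Tat and 159 ± 8.03 TPM in IKKβΔMye Tat (-1.04, adjusted p = 1.80e-13). Of 6 genes for ubiquitin on the vacuole and its receptors, 5 rose and 1 fell with Tat, against 17% and 67.6% of tested genes. In IKKβΔMye Tat 1 (Trim21) was lower (-0.59, adjusted p = 1.91e-09), or 5 with scaling, and none was higher. The shares of tested genes were 8.87% lower and 38.8% higher (19.4% and 15.9% with scaling). The 7 tested large GTPases outside the family (atlastins, dynamins, mitofusins and Opa1) all fell with Tat, as did 67.6% of tested genes, and with median-ratio scaling 2 were higher and none lower.

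Some T cell markers, like Iigp1 and Gm4951, were higher in IKKβΔMye Tat than in IKKβF/F Tat. The summed level of 9 listed T cell, natural killer cell and innate lymphoid cell markers was 9.77 to 18.8 TPM in IKKβF/F PBS, 8.01 to 9.68 TPM in IKKβF/F Tat and 13.7 to 16.4 TPM in IKKβΔMye Tat, and none of the 9 was at 0 in any library. Of the 6 tested, 4 (Cd3e, Cd3d, Cd3g and Cd8a) were higher in IKKβΔMye Tat with deposited TPM and after median-ratio scaling, against 38.8% and 15.9% of tested genes. Cd3e, Cd3d and Cd8a reached 1 TPM in 5 libraries only with those of IKKβΔMye Tat. Their calls thus rest on the group that admitted them and are only a description. All 4 lay close to the 1 TPM of the filter. With Tat 5 of the 6 fell and none rose with deposited TPM, against 67.6% and 17% of tested genes, whereas none fell and 1 (Gzma) rose after scaling. Cd3e was 1.46 ± 0.6252 TPM in IKKβF/F PBS, 0.724 ± 0.117 TPM in IKKβF/F Tat and 1.79 ± 0.295 TPM in IKKβΔMye Tat. Their part in the levels of Ifng, Iigp1 and Gm4951 was not tested. Neutrophil markers summed to 102 to 117 TPM in IKKβF/F PBS, 190.4 to 208 TPM in IKKβF/F Tat and 227 to 246 TPM in IKKβΔMye Tat. Csf3r and S100a8 were the main terms, and Elane was at 0 in every library. The other listed markers were low. In the same order of groups, S100a9 was at means of 1.15, 0.842 and 0.716 TPM and Cxcr2 at 0.359, 0.260 and 0.367 TPM. Ly6g was at 0.0338, 0.274 and 0.351 TPM and Mpo at 0, 0.0143 and 0.0172 TPM. The sum is therefore no measure of neutrophil content. The macrophage markers summed to 26366 ± 362 TPM, 10510.0 ± 215 TPM and 8148 ± 133 TPM in IKKβF/F PBS, IKKβF/F Tat and IKKβΔMye Tat, of which Lyz2, the gene that carries the Cre, made up 22382 TPM, 6993 TPM and 4333 TPM.

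Between libraries of a group, the members varied together in part. After the group means were removed, 43 of the 45 pairs of members had a positive Pearson correlation over the 17 libraries, with a median of 0.42 and a range from -0.06 to 0.96. The highest was that of Gbp7 and Irgm2, which lie on different chromosomes, followed by Gbp5 and Gbp7 at 0.87. The points share the libraries and their scaling, so these values are a description. The share of positive pairs among other tested genes was not computed. In IKKβΔMye Tat, Gbp2, Gbp5, Gbp7, Irgm2 and Gm4951 were all highest in the same library (1255, 478, 162, 107 and 33.6 TPM). All of them were lowest in another library (1199.95, 426, 119, 88.1 and 29.2 TPM). Jak2 and Ikbkb, outside the family, were also highest in the first of these libraries (212 and 19.9 TPM) and lowest in the second (156 and 12.8 TPM). Ifi47 was lowest in the first (496 TPM) and highest in the second (538 TPM). The pattern was thus neither common to all members nor particular to them.

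Genes whose pattern over the 17 libraries was most like that of the members were sought with the Pearson correlation of log2(TPM + 0.1) with the mean standardised level of the 10. Acod1, which makes itaconate, was closest (r = 0.9998, 282, 3029 and 2877 TPM in IKKβF/F PBS, IKKβF/F Tat and IKKβΔMye Tat), followed by the costimulatory receptor Cd40, the complement gene Cfb, Cd274, which encodes PD-L1, and Il1b (r = 0.999 for each). The groups are far apart and dominate these correlations, and 185 other tested genes had an r of 0.99 or more. Among the members, Gm4951 was the least like the mean of the 10, at r = 0.942, and Gbp5 the most like it, at r = 0.9998.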

How the data were processed

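The authors ran Salmon with the Ensembl annotation of GRCm38 and deposited TPM by gene symbol. Their methods name edgeR and TMM scaling for their group comparisons, and whether the deposited TPM carry that scaling is not given in the sources used here. The labels place the thioglycollate (1 mL, 3%) 3 days before collection and the methods 1 day more. For the 10451 tested genes, limma (version 3.58.1, R 4.3.3, eBayes with trend) was fitted to log2(TPM + 0.1) of all 3 groups together (14 residual degrees of freedom), and p-values were adjusted by Benjamini-Hochberg over these genes. Fold changes on this scale understate those of low genes. The code was tested on simulated data. The members, lists and thresholds were chosen with earlier results of these data known. Named genes are the 10 members, genes of the lists, the 5 non-members most like the members, and Ikbkb and Lyz2. Chromosome 18 neighbours outside the family were named after the values of the members were seen. Exact two-sided permutation tests took each member alone (30 tests, unadjusted). Shared 31-base sequences were counted in GENCODE M21 transcripts. The alternatives changed the pseudocount (0.5, 1), the filter (none, 5 TPM), the scaling (median-ratio, quantile) or the fit (compared groups alone, or robust eBayes with array weights), or left out each library. Python 3.11.15 was used. A further allele that all groups share and the values of 1 listed gene are not reported here.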

Additional observations from a re-analysis of the deposited data

How the results depend on the processing

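Of 750 alternative values for single members over 3 comparisons, 748 kept their direction and their side of the threshold, and none reversed. Gbp7 in IKKβΔMye Tat against IKKβF/F Tat passed only with median-ratio scaling (-0.36, adjusted p = 2.74e-04). Among the alternatives that did not leave out a library, its adjusted p reached 0.244. Gbp5 in the same comparison missed the threshold only without replicate 23 (-0.18, adjusted p = 0.0113). The count of members lower in IKKβΔMye Tat was 6 to 8. Counts over all tested genes moved by more than 1.5 times. For Tat, 545 genes were called higher (889 with median-ratio scaling, 867 with quantile normalization) and 2031 lower (1017, 826, 1197 with a pseudocount of 1 and 1281 with a filter at 5 TPM). At the adjusted p alone, Tat gave 1774 higher and 7068 lower (3893 and 3967 with median-ratio scaling, 3605 and 4182 with quantile normalization). For IKKβΔMye Tat against IKKβF/F Tat, 46 were called higher (25 and 16 with these scalings in the same order, 15 and 10 with pseudocounts of 0.5 and 1, 18 with a filter at 5 TPM, 30 in a fit of the compared groups) and 33 lower (64, 55 and 20 with a pseudocount of 1), and 4055 and 927 passed the adjusted p higher and lower (1658 and 2027, 1845 and 1599). For IKKβΔMye Tat against IKKβF/F PBS, 1165 were called lower (658, 544, 601 with a pseudocount of 1 and 689 with a filter at 5 TPM), and 1834 and 6143 passed (3530 and 3539, 3270 and 3789). No paired analysis was possible because the replicate numbers in the labels are not shared between groups. TPM hold no counts, so counting error could not be separated from the spread between libraries, and values of members that share sequence rest on the authors' assignment of reads.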
